A study of Mus musculus with 2 samples.

Results

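Notch signalling was described here through 10 genes: the receptors Notch1, Notch2 and Notch3, the ligands Jag1, Jag2 and Dll1, the target genes Hes1, Hey1 and Nrarp, and Lfng, which modifies the receptors. The genes were chosen by name, for their place in the pathway, and all 10 are among the 26897 genes that both tables of the series hold. The cells are epithelial cells of the mouse oviduct (strain C57BL/6), the tube between ovary and uterus, released with enzymes and sorted with antibodies to Epcam and CD45. They form 2 single-cell libraries (10x Chromium 3' V2), 1 labelled P4, read here as postnatal day 4, with 263 cells in 2 clusters of the authors, and 1 from adult mice at estrus with 406 cells in 5 clusters. The title names 2 lineages along the distal to proximal axis of the tube, and no label says which cluster is distal or proximal. The number of mice behind each library is not given in the sources used here.

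Notch receptors and their ligands are both membrane proteins, so signalling passes between touching cells. A bound receptor is cut by proteases, and its inner part enters the nucleus, joins the DNA-binding protein Rbpj and switches on target genes such as Hes1, Hey1 and Nrarp. In the airway and in frog skin, an active receptor keeps a cell from the multiciliated fate, while cells that make ligand tend to become multiciliated. The oviduct lining has the same pair of neighbours: multiciliated cells, whose beating cilia move fluid, and secretory cells.

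A level here is the pooled UMI of a gene (a UMI is 1 captured RNA molecule) per 10000 UMI of a group of cells, with an exact 95% Poisson interval. Ratios of levels have an exact conditional 95% interval. Both kinds of interval describe counting error and nothing else. With 1 library for each age, and cells that are not replicates, no p-value was computed and no value could be set against replicate spread. Measured genes are those seen in 10% or more of the cells of one of the compared groups, and a measured gene was called if its fold, with a pseudocount of 0.1 per 10000 added to both levels, was at least 2. Cells of the P4 library had a median of 7585 UMI (range 1331 to 23372) and adult cells 3232 UMI (502 to 16207). No cell barcode was shared by the 2 libraries. Of the adult barcodes, 401 occurred under 2 column prefixes, and each was counted once.

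Adult cluster 1 (183 cells) carried the multiciliated markers of a fixed list, at 96.6 per 10000 summed over the list against 1.31 in adult cluster 0, and is called multiciliated-like. Adult cluster 0 (130 cells) is called secretory-like, with summed secretory markers at 90.5 against 9.25 in cluster 1. Its first gene, Msln, is also on the list of mesothelial markers. Cluster 4 (31 cells) is also secretory-like, with Agr2 and Ovgp1 among its 10 leading genes. Cluster 3 (37 cells) held multiciliated markers at 60.5 per 10000 but led with Wfdc12, Ly6c1 and Krt17, and cluster 5 (25 cells) had 5 smooth muscle genes among its 6 leading genes, so these 2 are kept by number. At P4, cluster 0 (168 cells) led with the multiciliated genes Deup1, Dynlrb2 and Foxj1 and cluster 1 (95 cells) led with Ckb and Lgi1. Both are kept by number. Ptprc, the gene of CD45, had 0 UMI in both libraries. The clusters were made from the expression of these same cells, so differences between them describe the clusters and are not independent of how they were drawn.

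In the GRCm38 annotation (GENCODE M21), Notch1 lies on chromosome 2 from 26457903 to 26516663, Notch2 on chromosome 3 from 98013527 to 98150361 and Notch3 on chromosome 17 from 32120820 to 32166852. Of the ligands, Jag1 lies on chromosome 2 from 137081456 to 137116644, Jag2 on chromosome 12 from 112907819 to 112929776 and Dll1 on chromosome 17 from 15367354 to 15376872. The targets Hes1, Hey1 and Nrarp lie on chromosome 16 from 30064384 to 30067796, on chromosome 3 from 8663359 to 8667256 and on chromosome 2 from 25180758 to 25183339. Small gene models overlap Notch1, Notch2 and Jag2 on the same strand, so reads there could be split between genes.

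Hes1 and Notch2 gave most of the UMI of the 10 genes. Hes1 had 1110 UMI at P4 and 628 in the adult, Notch2 had 432 and 255, and Jag1 had 154 and 91. The other genes were sparse. Notch1 had 49 UMI at P4 and 15 in the adult, Notch3 had 36 and 23, Hey1 had 12 and 42, Lfng had 25 and 42, and Nrarp had 16 and 11. Jag2 had 3 UMI at P4 and 4 in the adult. Dll1 had 4 UMI at P4 and none in 406 adult cells, which allows a share of adult cells with a UMI of up to 0.739% by a limit of 3 counts (0.904% by the exact binomial interval). At least 1 UMI of any of the 10 genes was found in 248 of 263 P4 cells and in 245 of 406 adult cells, and the deeper P4 cells had more chances to show one.

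**Figure D1:**
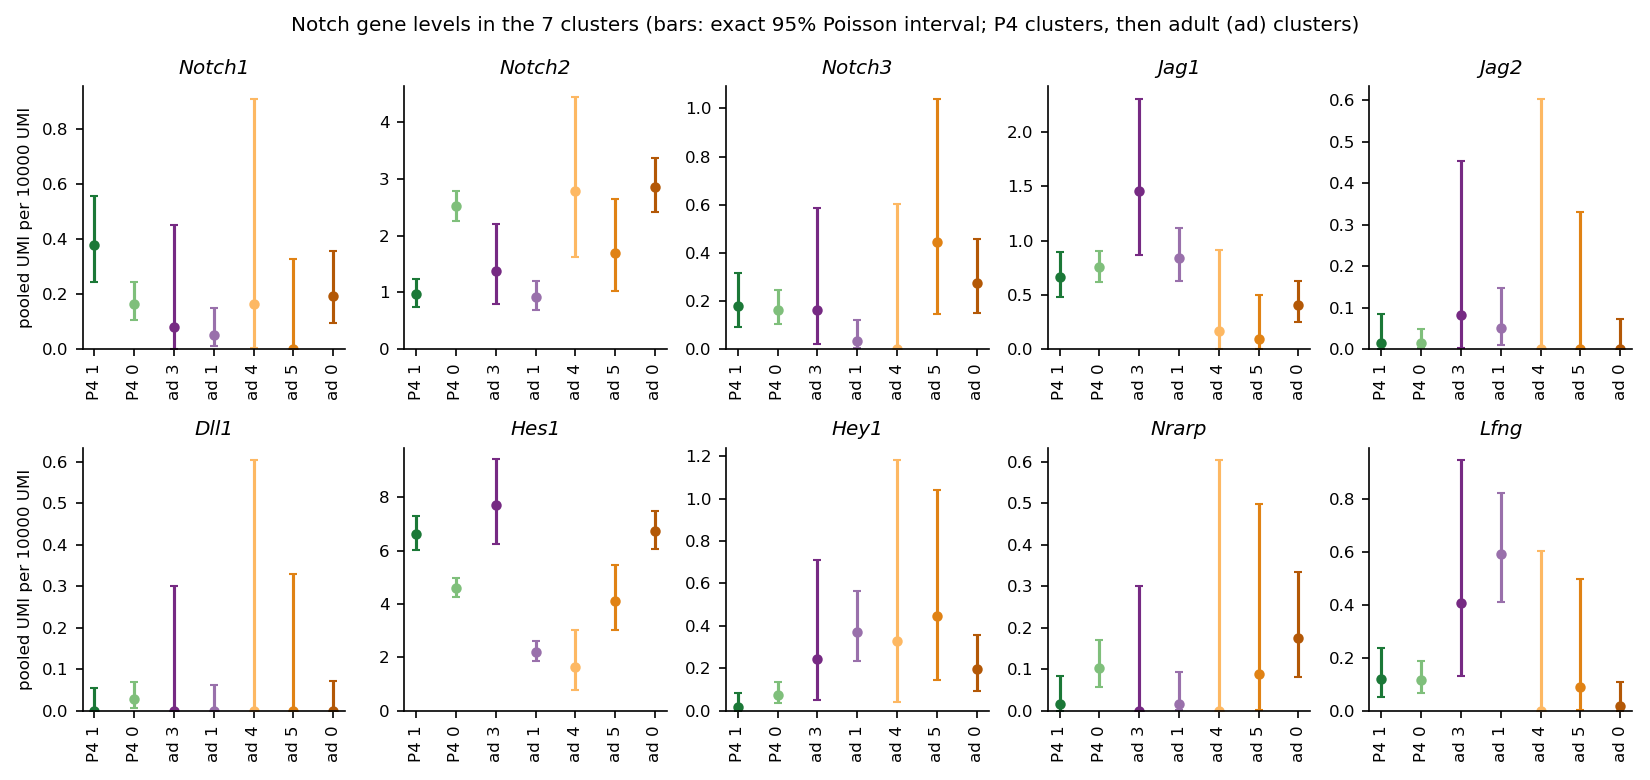
Level of each gene (pooled UMI per 10000 UMI, vertical axis, each panel with its own scale) in the 2 P4 clusters and the 5 adult clusters (horizontal axis), with exact 95% Poisson intervals as bars. Notch2 is high in P4 cluster 0 and in adult clusters 4 and 0, Lfng is high in adult clusters 3 and 1, and Hes1 is low in adult clusters 1 and 4.

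Notch2 was the receptor with the most UMI in every cluster. Its level was 0.966 in P4 cluster 1 and 2.52 in P4 cluster 0, and in the adult it was 1.38 in cluster 3, 0.928 in cluster 1, 2.78 in cluster 4, 1.70 in cluster 5 and 2.87 in cluster 0. P4 cluster 0 and both secretory-like adult clusters were thus high, and P4 cluster 1 and the multiciliated-like adult cluster were low. With totals over the genes that both tables share, no 2 neighbours in the order of these 7 levels differed beyond their counting intervals, while the ends of the order did. Notch1, which acts through the same nuclear partner, had its top level in P4 cluster 1, at 0.377, and lay at 0.195 in adult cluster 0 and at 0.0506 in adult cluster 1. P4 cluster 1 stood above the next cluster, adult cluster 0, by a ratio of 2.19 (1.01 to 5.10, shared genes). Notch3, in most tissues a receptor of mural cells, ran from a level of 0 in adult cluster 4 to 0.446 in adult cluster 5.

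In the multiciliated-like adult cluster 1, Notch2 and Hes1 were lower than in the secretory-like cluster 0, and the modifier Lfng was higher. Of the 10 genes, 5 were measured here: Lfng was called higher (23% of the 5494 measured genes were called higher), Notch2 and Hes1 were called lower (12.7% were), and Jag1 and Hey1 lay within 2-fold. A sparse gene passed the filter only through the cluster where it is high, so these counts describe the 5 genes alone. Notch2 had a level of 0.928 in cluster 1 (0.699 to 1.21) and 2.87 in cluster 0 (2.42 to 3.37), 3.09 times lower in cluster 1 (interval 2.25 to 4.29). Notch3 had 2 UMI in cluster 1 and 14 in cluster 0, and Notch1 had 3 and 10. The ratio for Notch3 was 0.124 (0.0136 to 0.538), and that for Notch1 was 0.260 with an interval up to 1.01. Summed over the 3 receptors, the level was 1.01 in cluster 1 (0.773 to 1.30) and 3.33 in cluster 0 (2.85 to 3.87).

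The ligand Jag1 went the other way over all cells of these clusters. Jag1, a ligand also made by many epithelia, had a level of 0.844 in cluster 1 (50 UMI) and 0.409 in cluster 0 (21 UMI). The ratio was 2.06 (1.22 to 3.61), and the fold with the pseudocount was 1.85, under the threshold for a call. Among cells with under 50 stress UMI per 10000 (genes switched on by tissue digestion) Jag1 was 1.04 in cluster 1 and 0.323 in cluster 0 (ratio 1.15 to 12.4), among cells with 50 to 150 it was 0.319 and 0.571 (0.163 to 1.75), and among cells with at least 150 it was 1.501 and 0.346 (1.34 to 13.7). The interval thus excluded 1 in 2 of the 3 bands. Jag2 had 3 UMI in cluster 1 and 0 in cluster 0, too few for a fold. Among the cells of cluster 1, 17 had a UMI of both a receptor and a ligand, 21 of a receptor only and 19 of a ligand only, out of 183. Among those of cluster 0, 13 had both, 43 a receptor only and 3 a ligand only, out of 130. Cells with a ligand alone were thus 10.4% of cluster 1 (6.37 to 15.7, exact binomial interval) and 2.31% of cluster 0 (0.478 to 6.60). The median depth was 3165 UMI per cell in cluster 1 and 4107.5 in cluster 0. A shallow cell can miss a receptor UMI as well as a ligand UMI, and these classes were not compared at equal depth. Free RNA can put a UMI into a cell that does not make the gene, and secretory markers stood at 9.25 per 10000 in cluster 1. Its part in these shares was not tested.

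Lfng encodes the glycosyltransferase lunatic fringe, which adds a sugar to Notch and changes how the receptor answers to Delta and Jagged ligands. It had 35 UMI in adult cluster 1 and 1 UMI in adult cluster 0, levels of 0.591 (0.412 to 0.822) and 0.0195 (up to 0.109), a ratio of 30.3 (5.09 to 1231). Of the cells, 26 of 183 in cluster 1 and 1 of 130 in cluster 0 had a Lfng UMI. Thinned to 1000 UMI a cell, 7 of 141 cells of cluster 1 and 0 of 112 cells of cluster 0 had one, under the 10% needed to count Lfng as measured. Cluster 3, the other cluster with multiciliated markers, held 5 UMI, at 0.406. Clusters 4 and 5 held 0 and 1 UMI. Lfng lies on chromosome 5 of GRCm38 from 140607320 to 140615545, on the plus strand, and Notch2 is also on the plus strand. Lfng was called higher and the receptor gene Notch2 lower in cluster 1, so the 250 bases before their RefSeq start sites (build GRCm38.p6, plus strand) are shown here, chr5:140607091-140607340 for Lfng and chr3:98013288-98013537 for Notch2. Capitals mark TGGGAA, the core of the sequence that Rbpj binds, on either strand.
Lfng: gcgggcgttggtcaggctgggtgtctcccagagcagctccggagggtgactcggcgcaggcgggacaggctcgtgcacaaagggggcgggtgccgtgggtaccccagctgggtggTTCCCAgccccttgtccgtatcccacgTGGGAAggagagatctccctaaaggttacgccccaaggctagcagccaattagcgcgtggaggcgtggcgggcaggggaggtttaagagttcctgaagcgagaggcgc
Notch2: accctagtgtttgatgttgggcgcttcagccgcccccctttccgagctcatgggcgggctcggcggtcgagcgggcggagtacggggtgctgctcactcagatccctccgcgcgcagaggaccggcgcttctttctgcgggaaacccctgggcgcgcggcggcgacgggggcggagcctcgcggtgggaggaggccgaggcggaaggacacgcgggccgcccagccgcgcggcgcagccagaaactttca
The Lfng window held TGGGAA in both directions, once read on the other strand from 135 to 130 bases before the start and once on the plus strand from 108 to 103 bases before it. The second match is part of the longer form CGTGGGAA, which contains the core. On either strand, TGGGAA was found in 21.6% and CGTGGGAA in 0.636% of the 32851 windows of the same length in the RefSeq table. Of the 8 genes of the set with an entry in that table, 1, Lfng, held TGGGAA in its window. The targets Hes1 and Hey1 have no entry there, so their windows were not read. A match describes these letters and is not a bound site.

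Among targets, Hes1, a repressor and the most used readout of Notch activity, had a level of 2.21 in cluster 1 (1.85 to 2.62) and 6.75 in cluster 0 (6.05 to 7.50), 3.05 times lower in cluster 1 (2.49 to 3.76). Nrarp, which feeds back on the active receptor, had 1 UMI in cluster 1 and 9 in cluster 0, a ratio of 0.0962 (0.00219 to 0.694). Hey1, a relative of Hes1, had 22 UMI in cluster 1 and 10 in cluster 0, a ratio of 1.90 whose interval reached from 0.865 to 4.51. Nrarp and Hey1 are too sparse here to say more than these counts.

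A list of 76 other genes of the pathway was read beside the 10 genes. Of these, 30 were measured between adult clusters 1 and 0: 5 were at least 2-fold higher in cluster 1, 6 at least 2-fold lower and 19 in between (23% and 12.7% of all measured genes were called higher and lower), with a median log2 fold of -0.07, against 0.18 over all 5494 measured genes. The group of genes for inhibition and turnover of the receptor had 3 of its 4 measured genes higher in cluster 1. All 3 belong to the Deltex family of ubiquitin ligases. Dtx1 and Dtx2 passed the 10% filter only through cluster 1 (13.7% and 13.1% of its cells, against 0.769% of cluster 0 for each), so being measured and being higher go together for them. Dtx1 had 29 UMI in cluster 1 and 1 in cluster 0, Dtx2 had 26 and 1, and Dtx3 had 123 and 33, with a ratio of 3.23 for Dtx3 (2.18 to 4.89). Mib2, a ubiquitin ligase through which ligands are taken up into the cell, was also higher, at 27 UMI against 5, as was Kat2b, an acetyltransferase that joins transcription complexes, at 30 against 4. Lower in cluster 1 were Ccnd1, the cyclin D1 gene, at a level of 0.591 against 3.08, the transcription factor gene Myc, at 3 UMI against 23, and the inhibitor of basic helix-loop-helix factors Id1, at 0.371 against 1.27, all of which have been reported as Notch targets in other tissues. So were Bhlhe40 (0.506 in cluster 1 against 1.85 in cluster 0), the corepressor gene Tle1 (0.169 against 0.468) and Adam10, whose protease makes the first cut of the bound receptor (0.152 against 0.409). Ccnd1, Myc and Id1 are 3 of the 6 measured genes in the group of other reported targets. The other 3 of that group lay within 2-fold. Mib2 and Kat2b passed the filter only through cluster 1, and Ccnd1, Myc, Id1, Tle1 and Adam10 only through cluster 0. For these genes too, being measured and being called go together. Rbpj itself had 17 UMI in cluster 1 and 9 in cluster 0 and was not measured.

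**Figure D2:**
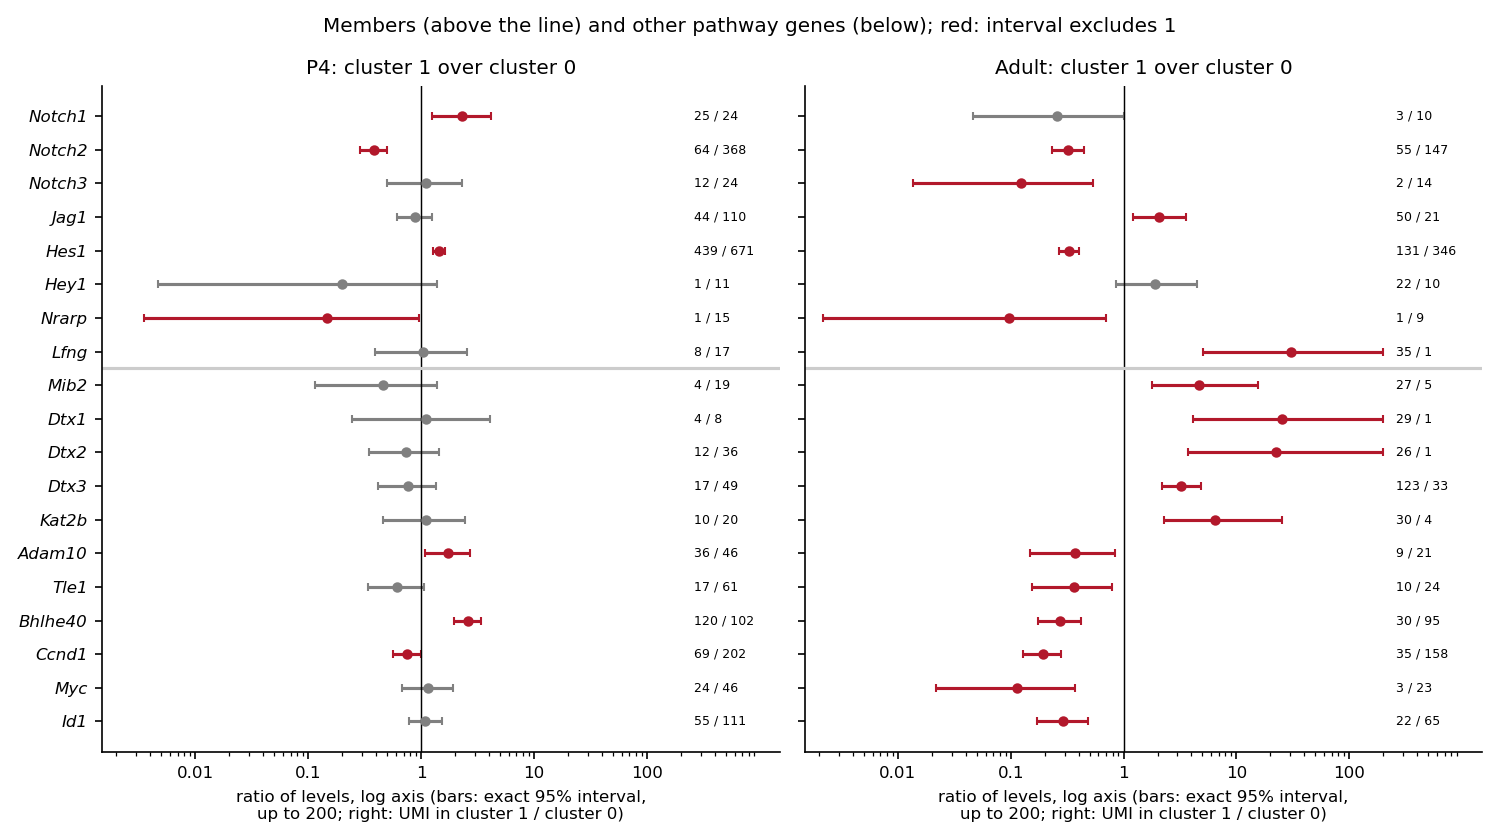
Ratio of levels of cluster 1 over cluster 0 (log axis) at P4 (left) and in the adult (right), with exact 95% intervals drawn up to 200 and the UMI of both clusters at the right, for 8 of the 10 genes (Jag2 and Dll1 had too few UMI) and 11 other pathway genes below the line. Notch2 lies left of 1 at both ages, whereas the intervals of Lfng, Dtx1, Dtx2 and Dtx3 lie above 1 in the adult panel and span 1 in the P4 panel. Cluster 1 is a different kind of cell at the 2 ages.

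In adult clusters 0 and 1, the Hes1 levels moved with genes of the dissociation stress list, such as Fos and Jun. These genes are switched on while tissue is being digested. Stress genes summed to 61.7 per 10000 in adult cluster 1 and 142 in adult cluster 0, and 11 of 13 measured stress genes were at least 2-fold lower in cluster 1. Within cluster 0, the 65 cells above the median stress level had Hes1 at 10.1 (8.98 to 11.4), and the 65 cells at or below it had 2.88 (2.24 to 3.64). Notch2 was 2.89 in the cells above the median and 2.84 in those at or below it. Within cluster 1 the Hes1 level was 2.63 (2.12 to 3.22) in the 91 cells above its median and 1.59 (1.13 to 2.18) in the 92 others. Within cluster 4 the order was the other way, at 0.634 (2 UMI) above its median and 2.70 (8 UMI) at or below it. The remaining clusters had more Hes1 above their medians. From 50 to 150 stress UMI to 150 and over, however, Hes1 fell from 5.31 to 3.01 (7 cells) in P4 cluster 0. In adult cluster 5 it fell from 5.39 to 3.28 (6 cells). Among cells with 50 to 150 stress UMI per 10000, 47 of cluster 1 and 42 of cluster 0, Hes1 stood at 3.29 in cluster 1 and 4.38 in cluster 0, and the interval of the ratio, 0.525 to 1.07, included 1. Among the same cells Notch2 was 0.903 in cluster 1 and 2.35 in cluster 0, 2.60 times lower (1.43 to 4.93), and Lfng had 9 UMI in cluster 1 and 1 in cluster 0. Under 50 stress UMI, 125 cells of cluster 1 had Hes1 at 1.40 and 37 cells of cluster 0 had it at 2.42, a ratio of 0.578 (0.360 to 0.941). At 150 and over, Hes1 was 4.07 in 11 cells of cluster 1 and 10.7 in 51 cells of cluster 0, a ratio of 0.382 (0.226 to 0.609). Hes1 was thus lower in cluster 1 beyond counting error in 2 of the 3 bands. For Notch2 the ratio was 0.260 (0.156 to 0.428) under 50 and 0.567 (0.236 to 1.18) at 150 and over, so its interval excluded 1 in the lower 2 bands and included it in the highest. Over the 7 clusters the patterns most like that of Hes1 among 6897 genes were those of Junb (Pearson r = 0.987) and Btg2 (r = 0.983). Junb is on the stress list and Btg2 is known as an early response gene. The points share library and depth, and the r values are a description.

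**Figure D3:**
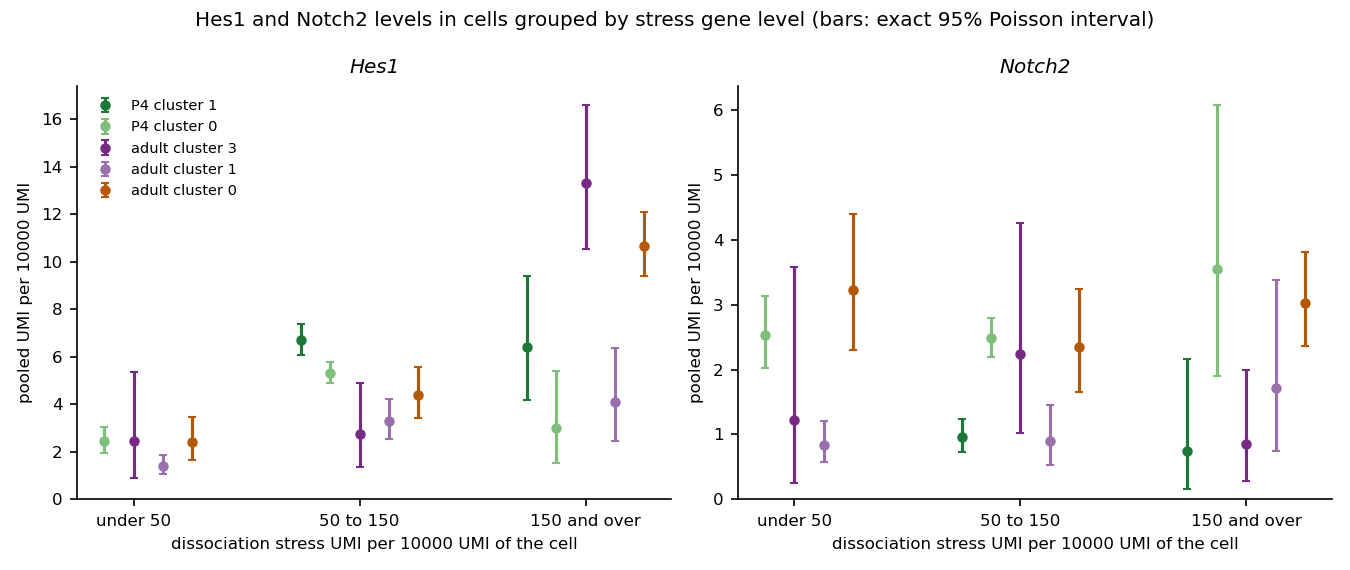
Levels of Hes1 (left) and Notch2 (right) in cells grouped by their own dissociation stress UMI per 10000 (under 50, 50 to 150, 150 and over), for 2 P4 and 3 adult clusters, with exact 95% Poisson intervals; groups under 5 cells are not drawn. Hes1 climbs with the stress level in adult clusters 1, 3 and 0, reaching 13.3 in cluster 3 and 10.7 in cluster 0, while Notch2 stays between 2.35 and 3.23 in adult cluster 0.

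Cluster 3, which shares multiciliated markers with cluster 1, had more Hes1. The level was 7.71 in cluster 3 (6.24 to 9.43) and 2.21 in cluster 1, a ratio of 3.49 (2.65 to 4.58), and Hes1 was the 1 gene called among 5 measured (11.7% of 5483 genes were called higher and 9.06% lower). Stress genes summed to 177 per 10000 in cluster 3 and 61.7 in cluster 1. Under 50 stress UMI, Hes1 was 2.45 in 9 cells of cluster 3 and 1.40 in 125 cells of cluster 1, a ratio of 1.75 (0.615 to 4.09). Among cells with 50 to 150 it was 2.74 in 12 cells of cluster 3 and 3.29 in 47 cells of cluster 1, a ratio of 0.832 (0.395 to 1.59). Among cells with at least 150, it was 13.3 in 16 cells of cluster 3 and 4.07 in 11 cells of cluster 1, a ratio of 3.27 (1.96 to 5.72). The difference thus exceeded counting error in the band of highest stress and was unresolved in the other 2. Jag1 had its top level of all clusters in cluster 3, at 1.46 (0.866 to 2.31). It was 0.844 in cluster 1, with a ratio of 1.73 (0.951 to 3.02). Over the next cluster, P4 cluster 0, the ratio was 1.71 (0.977 to 2.83, shared genes), so the top rank was unresolved. Thinned to 1000 UMI a cell, 0 of 29 cells of cluster 3 and 14 of 141 cells of cluster 1 had a Jag1 UMI. Lfng was 0.406 in cluster 3 and 0.591 in cluster 1, and Notch2 was 1.38 and 0.928. From the pathway list, 4 of 26 measured genes were called higher and 3 lower. The lower ones were Kat2b with 1 UMI in cluster 3 and 30 in cluster 1, Hes6, a Hes family gene that can act against Hes1, with 3 and 44, and Sox9, a transcription factor gene of many progenitors, with 4 and 48. The intervals for Hes6 and Sox9 included 1, and Kat2b, Hes6 and Sox9 passed the filter only through cluster 1.

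The secretory-like cluster 4 matched cluster 0 in Notch2 and not in Hes1. Notch2 was 2.78 in cluster 4 (1.62 to 4.45) and 2.87 in cluster 0, a ratio of 0.970 (0.550 to 1.61). Hes1 had 10 UMI at a level of 1.64 in cluster 4 and 6.75 in cluster 0, and was the only one of 3 measured genes called lower (20.8% of 4474 genes were, and 8.99% were called higher). The 27 cells of cluster 4 with under 50 stress UMI had Hes1 at 1.65 and the 37 such cells of cluster 0 at 2.42, a ratio of 0.684 (0.271 to 1.53). Stress genes summed to 41.9 per 10000 in cluster 4 and 142 in cluster 0, and the median depth was 1185 UMI per cell in cluster 4 and 4107.5 in cluster 0. Notch3 had 0 UMI in cluster 4 and 14 in cluster 0, and a count of 0 in the shallow cluster 4 (61113 UMI in all) allows a level of up to 0.491 by a limit of 3 counts (0.604 by the Poisson interval). In the pathway list 8 of 26 measured genes were called lower and 0 higher. Of the 6 with at least 20 UMI in cluster 0, Bhlhe40 had 1 UMI in cluster 4 and 95 in cluster 0 and a ratio of 0.0883 (0.00221 to 0.504). The intervals of the other 5, Mib1, Adam10, Cir1, Ctbp2 and Myc, included 1. All 6 passed the filter only through cluster 0.

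Cluster 5 held 7 cells with 42 or more smooth muscle UMI, while its other 18 cells had at most 4. The 7 cells carried all 5 Hey1 UMI and 4 of the 5 Notch3 UMI of the cluster. They also held 58023 of its 112074 UMI over all genes, and 16 Foxj1 UMI against 0 in the other 18 cells. Without the 7 cells Hey1 had 0 UMI and Notch3 had 1 UMI in cluster 5. Jag1 was called lower in cluster 5 with 1 UMI against 21 in cluster 0, but the interval of the ratio, 0.00527 to 1.35, included 1 (8.41% of 5835 genes were called lower and 14.8% higher). Jag1 passed the filter only through cluster 0. After thinning to 1000 UMI its log2 fold turned to 0.33. Notch2 was 1.70 in cluster 5 and 2.87 in cluster 0, a ratio of 0.591 (0.346 to 0.957), and Hes1 was 4.10 and 6.75, with a ratio of 0.608 (0.437 to 0.829). Of 32 measured pathway genes 4 were called higher and 1 lower. The 1 with at least 20 UMI was Id2, another inhibitor of helix-loop-helix factors, at 4.19 in cluster 5 and 1.38 in cluster 0.

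The authors also clustered the adult cells together with the P4 cells, and that grouping cut across adult clusters 0 and 4. Merged cluster 2 (98 adult cells, 79 of them from adult cluster 0) had Notch2 at 3.27, and merged cluster 4 (85 adult cells, 49 from adult cluster 0 and 24 from adult cluster 4) had it at 0.898, with a ratio interval of 1.94 to 7.73. Notch1 had 11 UMI in merged cluster 2 and 0 in merged cluster 4, Notch3 had 18 and 1, and Jag1 had 22 and 1. Merged cluster 4 was shallow, with 111386 UMI in its adult cells against 550000 in those of merged cluster 2, and the ratio intervals of these 3 genes included 1. Hes1 was 6.33 in merged cluster 2 and 4.76 in merged cluster 4 (0.994 to 1.81).

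At P4 the 2 clusters differed most clearly in Notch2. Notch2 was 0.966 in P4 cluster 1 (0.744 to 1.23) and 2.52 in P4 cluster 0 (2.27 to 2.79), a ratio of 0.383 (0.289 to 0.501). It was the 1 gene called among 5 measured, and of the 8721 measured genes 1.38% were called lower and 1.41% higher. Among cells with 50 to 150 stress UMI it was 0.960 in 88 cells of cluster 1 and 2.48 in 123 cells of cluster 0. Notch1 had the opposite order, at 0.377 in cluster 1 and 0.164 in cluster 0, with a ratio of 2.296 (1.26 to 4.20) and a fold of 1.81 with the pseudocount, under the threshold. Summed over the 3 receptors the level was 1.52 in cluster 1 (1.24 to 1.85) and 2.85 in cluster 0 (2.58 to 3.14). The ligand Jag1 did not set the clusters apart, at 0.664 in cluster 1 and 0.753 in cluster 0, with a ratio interval of 0.607 to 1.26. The other ligands were too sparse to compare, with Jag2 at 1 UMI in cluster 1 and 2 in cluster 0, and Dll1 at 0 and 4.

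Hes1 was 6.63 in P4 cluster 1 (6.02 to 7.28) and 4.59 in P4 cluster 0 (4.25 to 4.96), a ratio of 1.44 (1.28 to 1.63). Stress genes summed to 99.97 per 10000 in cluster 1 and 72.2 in cluster 0, and among cells with 50 to 150 stress UMI the Hes1 ratio was 1.26 (1.11 to 1.43). Nrarp had 1 UMI in cluster 1 and 15 in cluster 0, a ratio of 0.147 (0.00349 to 0.955), and Hey1 had 1 and 11. Hes1 and Notch2 thus had opposite orders at P4, while in adult clusters 1 and 0 they had the same one. Lfng was 0.121 in cluster 1 and 0.116 in cluster 0. Of 48 measured pathway genes, 1 was higher in cluster 1, Bhlhe40, at 1.81 against 0.698, and 1 was lower, Furin, whose protease matures the receptor, at 0.121 against 0.390. Over all 8721 measured genes, 1.41% were called higher and 1.38% lower. Furin passed the filter only through cluster 0.

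A set of 6 P4 cells, all in P4 cluster 0, held over 30 multiciliated marker UMI per 10000, from 37.2 upward, while the other P4 cells held at most 24.1. The threshold was set with the data in view. In these 6 cells Notch2 and Hes1 were low, and Lfng was high through 1 cell with 4 of its 5 UMI. Notch2 had 4 UMI, a level of 0.412 (0.112 to 1.06), against 2.67 (2.40 to 2.96) in the other 162 cells of the cluster, 6.47 times lower (2.51 to 23.9). Hes1 had 10 UMI, a level of 1.03 (0.494 to 1.90), against 4.85 (4.48 to 5.23) in the others, 4.70 times lower (2.54 to 9.85). By cell, the 6 cells had 1, 3, 0, 4, 0 and 2 UMI of Hes1 and 0, 1, 1, 0, 1 and 1 UMI of Notch2. Their median depth was 18605.5 UMI, against 7777.5 in the others. Their summed stress level was 39.6 against 74.5, and its part in the Hes1 value was not tested.

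Lfng had 5 UMI in the 6 cells, from 2 of them with 4 and 1 UMI, at a level of 0.515 (0.167 to 1.20), and 12 UMI in the 162 others at 0.0880, a ratio of 5.86 (1.62 to 17.9). Jag1 had 10 UMI from 3 cells, a level of 1.03 against 0.733 in the others, with a ratio interval of 0.654 to 2.69. Other pathway genes were picked here after their values were seen. Of the Deltex genes, Dtx2 had 7 UMI at 0.722 against 0.213 (ratio 3.39, 1.25 to 7.92) and Dtx3 had 9 UMI at 0.928 against 0.293 (3.16, 1.35 to 6.62). Dtx4 had 3 UMI against 17 in the others (ratio interval 0.466 to 8.58), and Dtx3l had 0 against 27 (up to 2.06). Aph1a, from the protease group of the list, had 0 UMI against 62 (up to 0.862). Hes6 had 10 UMI, at 1.03 against 0.403 (2.56, 1.16 to 5.06), and Snw1, a cofactor of Rbpj, had 17, at 1.75 against 0.858 (2.04, 1.15 to 3.41). Ccnd1 had 2 UMI at 0.206, against 1.47 in the others, 7.11 times lower (1.94 to 59.2). Tle1, called lower in adult cluster 1 over 0, had 6 UMI in these cells, at 0.618 against 0.403 (0.539 to 3.56). In the authors' joint clustering, 14 P4 cells fell into merged cluster 0 with 178 cells of adult cluster 1. Those 14 cells had Notch2 at 0.477 (5 UMI), Hes1 at 1.24 (13 UMI) and Lfng at 0.477 (5 UMI), while the 225 P4 cells of merged cluster 1 had 2.40, 6.48 and 0.0991. How many of the 6 cells are among the 14 is not given here. The 2 sets may hold the same cells and UMI and are not separate observations. Dll1, the Delta ligand made by newly forming multiciliated cells of other tissues, had 4 UMI in 4 cells, all in P4 cluster 0. Of these cells 1 was among the 6, and another had 3 Foxj1 and 7 Deup1 UMI.

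**Figure D4:**
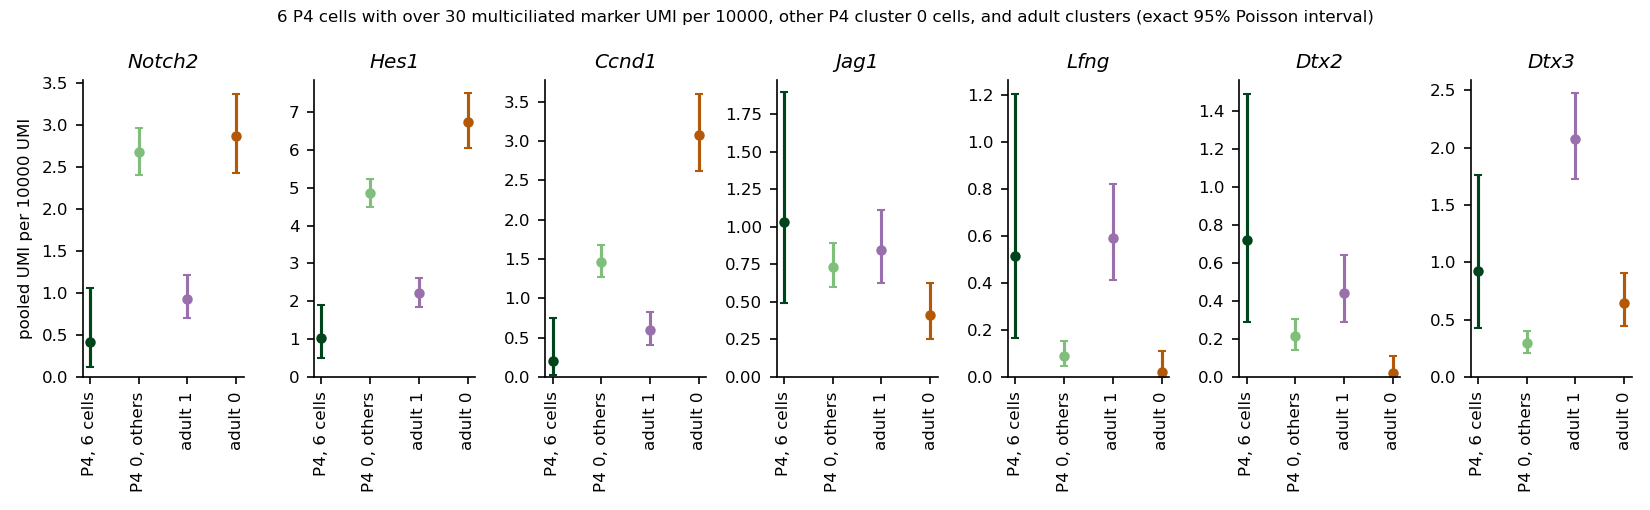
Levels (pooled UMI per 10000 UMI, each panel with its own scale) of 7 genes in the 6 P4 cells over the multiciliated threshold, the other 162 cells of P4 cluster 0, adult cluster 1 and adult cluster 0, with exact 95% Poisson intervals. The genes drawn were chosen after their values were seen; Notch2 stands at 0.412 in the 6 cells and at 2.67 in the other P4 cluster 0 cells, and Hes1 at 1.03 and 4.85.

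Splitting all P4 cells by a single UMI of Foxj1, the regulator of motile cilia, did not separate the 10 genes. The 65 cells with a Foxj1 UMI and the 198 without had 7 genes measured and none called (of 9415 genes, 2.1% were called higher and 0.372% lower). Notch2 was 1.92 in cells with Foxj1 and 2.09 in cells without, with a ratio interval of 0.741 to 1.13, and Hes1 was 4.86 and 5.40 (0.788 to 1.02). Lfng had 13 UMI in cells with Foxj1 and 12 in cells without, at 0.190 and 0.0834, a ratio of 2.28 (0.960 to 5.47). In the pathway list 1 of 48 measured genes was called, Furin, at 0.541 in cells with Foxj1 and 0.194 in cells without. A cell with many UMI shows a Foxj1 UMI more easily, and the median depth was 8782 UMI with and 7087 without.

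Between ages, Hey1 was the gene called, lower in P4 cells than in adult cells. Totals were taken over the genes both tables hold. Age, library, sort, depth and annotation cannot be told apart here. Hey1 had 12 UMI at P4 and 42 in the adult, levels of 0.0652 and 0.305, 4.68 times lower at P4 (2.42 to 9.76), and was the 1 gene called among 6 measured (11.5% of 7283 genes were called lower and 10.4% higher). Hey1 passed the 10% filter only through the adult cells, at 10.1% of them against 3.42% of P4 cells. Being measured and being lower at P4 thus go together for it. Of the 12 Hey1 UMI at P4, 4 came from 3 cells with at least 3 endothelial UMI, and without such cells at both ages the log2 fold was -1.51 against -1.29 with them. In the adult, 10 cells with at least 10 smooth muscle UMI held 7 of the 42 Hey1 UMI. The other 396 adult cells held 35 UMI, so fewer than 10% of them can have one. Without the 10 cells Hey1 would thus not pass the filter. With a pseudocount of 0.5 the log2 fold was -0.51, which is no call. Hey1 was lower at P4 than in adult cluster 1 (0.378, ratio 0.0778 to 0.364) and than in adult cluster 0 (0.198, 0.130 to 0.850). Notch1 was 0.266 at P4 and 0.109 in the adult, a ratio of 2.44 (1.35 to 4.69) with a fold of 1.75 after the pseudocount, under the threshold. Lfng, not measured by the filter, was 0.136 at P4 and 0.305 in the adult, a ratio of 0.445 (0.260 to 0.748). Hes1 was 6.03 at P4 and 4.56 in the adult (ratio 1.20 to 1.46), Notch2 was 2.35 and 1.85 (1.08 to 1.49) and Jag1 was 0.837 and 0.661 (0.971 to 1.66).

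The adult library is a mixture, so P4 cells were also set against single adult clusters. P4 cells exceeded adult cluster 1 in Notch2 (2.35 against 0.946, ratio 1.87 to 3.35), in Notch1 (0.266 against 0.0516, 1.67 to 25.9), in Notch3 (0.196 against 0.0344, 1.46 to 48.8) and in Hes1 (6.03 against 2.25, 2.23 to 3.23). They were lower in Lfng, at 0.136 against 0.602 (0.130 to 0.388). Against adult cluster 0, P4 cells had Notch1 at 0.266 against 0.198 (0.672 to 2.97), Hes1 at 6.03 against 6.86 (0.778 to 0.995), Notch2 at 2.35 against 2.92 (0.666 to 0.978) and Jag1 at 0.837 against 0.417 (1.27 to 3.34). Stress genes summed to 80.8 per 10000 at P4, against 61.7 in adult cluster 1 and 142 in adult cluster 0, and their part in the Hes1 values was not tested.

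In the list of 76 pathway genes, 42 were measured between ages, with 3 called higher and 2 lower at P4. Over all 7283 measured genes, 10.4% were called higher and 11.5% lower, so the list did not stand out. Dlk1, an imprinted gene for a membrane protein related to the Notch ligands, had 517 UMI at P4 and 0 in the adult, at least 129-fold higher at P4 against a floor of 3 counts over the adult library. At P4 it was even across clusters, at 2.40 in cluster 1 and 2.45 in cluster 0. Tle4, a corepressor gene, was higher at P4 with a level of 0.234 against 0.0581, and Id3 with 1.27 against 0.567. Dlk1 and Tle4 passed the filter only through the P4 cells. Dtx3 was lower, at 0.359 against 1.39, and so was Sox9, at 0.256 against 0.821. Multiciliated markers summed to 4.82 per 10000 at P4 and 48.1 in the adult, and proliferation markers to 4.03 and 0.153.

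Some cells held UMI of both a ligand and a receptor, and these joint counts were not set against an expected number. Jag1 and Notch2 were both seen in 63 of 263 P4 cells, with 24 that had Jag1 alone, and in 36 of 406 adult cells, with 26 that had Jag1 alone. Thinned to 1000 UMI a cell, both were seen in 3 of 263 P4 cells and 5 of 322 adult cells, so the joint counts rest on deep cells. At that depth 12 P4 cells and 14 adult cells had Jag1 alone. Hes1 and Notch2 were both seen in 129 P4 cells and 70 adult cells. Each gene by itself was common, with Hes1 in 222 and Notch2 in 150 of the 263 P4 cells. In the adult, Hes1 was seen in 180 and Notch2 in 108 of 406 cells. By the likeness of levels over the 7 clusters, the gene nearest to Lfng was Pus7 (r = 0.989). Those nearest to Jag1 were Rala (0.991) and Usp37 (0.988), and to Notch2 Mad2l1 (0.952) and Ubp1 (0.910). Notch1 was nearest to Galt (0.993) and Aco1 (0.966), Notch3 to Trip10 (0.983) and Imp3 (0.980), and Hey1 to Hint2 (0.975) and Hist1h2al (0.972). Each r rests on 7 points that share 2 libraries, and the sparse genes among them on few UMI.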

How the data were processed

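The authors deposited raw counts, UMI per gene and cell with no normalization, for the adult, the P4 and the merged cells, and a cluster number per cell. The submitters' processing notes name Cell Ranger, Seurat 2.3.4 and mm10, without the step of each. The counts were checked to be whole numbers. Whether counting used strand is not given in the sources used here, and genes on the other strand overlap Notch1, Notch3, Dll1 and Nrarp in GENCODE M21. A barcode under both adult prefixes was read from the first. Levels, ratios and intervals were computed with Python 3.11.15, numpy 2.4.6, pandas 2.3.3 and scipy 1.17.1, and tested on simulated data. Shared genes alone entered comparisons between ages. No doublet caller was run; an alternative left out the 5% of cells with most UMI. Precision is set by the counts given beside each value. Named genes were all 10 genes, pathway genes that were called with at least 20 UMI on the higher side, and the 2 genes most like each gene with at least 50 UMI. One gene that this rule names is not reported here. The genes and lists were chosen with earlier results of these data known. Sequences are RefSeq's.
The stress band, the endothelial alternative and the thresholds of 30 multiciliated UMI per 10000 and 10 smooth muscle UMI were chosen after seeing the data. Figures were drawn with matplotlib 3.10.9.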

Additional observations from a re-analysis of the deposited data

How the results depend on the processing

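No paired analysis was possible because each age is 1 library and no replicate numbers exist. Of 188 counts recomputed under alternatives, 133 stayed within 1.5 times and 55 moved, and of 411 log2 folds of single genes 356 stayed close, 52 moved and 3 turned round. The cause was not tested. Shares called over all genes under each alternative are not given here, so a moved count cannot be set against them. Counts of the 10 genes called, with more than a 1.5-fold move, were as follows. For cluster 1 over 0 in the adult (1 higher, 2 lower), 4 were lower without the filter, 0 higher at 25% of cells or thinned to 1000 UMI, 2 higher without cells with 2 or more non-epithelial markers, and 1 lower in the stress band of 50 to 150. For cluster 3 over 1 (1 higher, 0 lower), 2 were higher and 1 lower by means over cells and in the band, and 2 higher when thinned or without non-epithelial cells. For cluster 4 over 0 (0 higher, 1 lower), 2 were lower with the other prefix, by means over cells and in the band, which gave 1 higher, and 3 lower without the filter. For cluster 5 over 0 (0 higher, 1 lower, Jag1), 2 were lower without the filter. None (0) were lower with the other prefix, by means over cells, with a pseudocount of 0.5, at 25%, without the 5% of cells with most UMI (1 higher), without non-epithelial cells or without smooth muscle cells, and 1 was higher in the band. For P4 cluster 1 over 0, 1 was higher without non-epithelial cells, which left 6 and 5 cells. For P4 over adult (0 higher, 1 lower), 1 was higher by means over cells, without non-epithelial cells and in the band, and 0 were lower with a pseudocount of 0.5, at 25%, thinned, without the 5% of cells with most UMI, without non-epithelial cells and against adult cluster 0 alone. Against adult cluster 1 alone 4 were higher and 2 lower. For P4 cells with Foxj1 over those without, 1 was higher when thinned, and no value was had without non-epithelial cells.

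Of the 76 other pathway genes, without the filter 10 were higher and 11 lower in adult cluster 1 over 0 (5 and 6 with it), 12 lower in 3 over 1 (3), 6 higher in 4 over 0 (0), 4 lower in 5 over 0 (1), 2 lower in P4 cluster 1 over 0 (1) and 4 lower in P4 over adult (2). At 25% of cells, 1 was higher and 2 lower in 1 over 0, 1 higher and 0 lower in 3 over 1, 1 lower in 4 over 0, 2 higher and 0 lower in 5 over 0, 0 lower in P4 cluster 1 over 0 and 1 lower in P4 over adult. Values that turned round were Jag1 in cluster 5 over 0, with a log2 fold of 0.33 thinned and 0.80 without non-epithelial cells, and Hes1 in cluster 3 over 1, with -0.26 in the band, where the interval of the ratio (0.395 to 1.59) included 1. Depth limits Notch1, Notch3, Hey1, Nrarp, Lfng, Jag2 and Dll1, each with 67 UMI or fewer in all.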
